A study of Mus musculus with 4 samples.

Results

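NANOG binding was examined at clustered peaks that lie away from OCT4 co-bound NANOG peaks and carry none of the study's chromatin annotations. Of 21066 windows of 351 bp, 16608 were bound, meaning that the mean signal of the uninduced or of the treated libraries reached 0.9 RPKM (reads per kilobase of window, scaled to the total reads of the library). Among these, 2402 (14.5%) met 3 conditions: all 4 deposited flags (OCT4 site within 1 kb, active promoter, active enhancer, repressed) were false, the peak center lay within 10 kb of the center of another bound peak, and no bound peak flagged for OCT4 lay within 10 kb. They are called clustered unflagged peaks below. An OCT4 site more than 1 kb away, with no bound peak flagged for it, was not excluded. The closest comparison is with 8076 isolated unflagged peaks, which have no other bound peak within 10 kb, and further groups are 673 unflagged peaks near an OCT4 co-bound peak, 3930 OCT4 co-bound peaks and 1527 peaks with another flag. Of the 2402 peaks, 82 reached 0.9 RPKM only after IAA and 26 only without it. Because the signal in both conditions decided which windows counted as bound, changes of signal within the group are described here and support nothing further.

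NANOG is a homeodomain transcription factor of the naive pluripotency network, and at many enhancers of mouse embryonic stem cells (ESCs) it binds next to OCT4 and SOX2. OCT4 recognizes the octamer sequence through its POU domain, and often does so beside SOX2 on a joint SOX-OCT element. Regulatory DNA of pluripotency genes commonly holds several factor-binding sites within a few kilobases, so neighboring peaks can belong to the same regulatory region.

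The cells were ZHBT-O4AID ESCs of strain 129SV that were Oct4-/- and carried TetOFF Oct4, together with CAG Oct4AID and CAG Tir1. OCT4 therefore came only from a CAG-driven fusion to an auxin-inducible degron, while 1 μg/ml doxycycline kept the wild-type transgene off. All were grown in N2B27 with 1 μM PD03, 3 μM Chiron and mLIF, conditions that both groups share. The uninduced group held 2 libraries, and the IAA group held 2 libraries from cells given 500 μM of the auxin IAA for 1.5 h, after which TIR1 directs the fusion protein to degradation. The assay was NANOG ChIP-seq, in which DNA bound by NANOG is immunoprecipitated and sequenced, and neither OCT4 nor RNA was measured in them. Per the study's methods the replicates were separate immunoprecipitations, and nothing says that they came from separate cultures, so p-values measure only the spread between these libraries.

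From the RPKM steps, uninduced replicates 1 and 2 had 8236968 and 11674801 reads in total. IAA replicate 1 was the deepest library, with 19634763 reads, and IAA replicate 2 the shallowest, with 5406307. The median read number per clustered unflagged peak was 6 and 11 without IAA and 28 and 8 with it, so each value at a peak rests on few reads. Since no deposited value is 0, a window at the value of 1 read may have had none, which concerns 107 and 19 of the 2402 peaks in the uninduced and 5 and 39 in the IAA libraries.

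Sequences are shown for 8 of the peaks named further on, because they are among the strongest peaks or the largest changes. Each line gives the central part of a window on the plus strand, 5′ to 3′, read from the RefSeq sequence of GRCm38. Capitals mark exact matches, on either strand, to the words TAATGG (NANOG-type homeodomain), ATGCAAAT (octamer), CATTGT and CTTTGT (SOX), AAGGTCA (ESRRB-type nuclear receptor), GGAATG (TEAD), GGGTGTGG (KLF-type GT box), TTCCNGGAA (STAT) and TTGTNATGC (SOX-OCT core). The word CTTTGT was added after the sequences had been read. The words GGGTGTGG, TTCCNGGAA and TTGTNATGC have no match in the sequences shown.
Hexa intron, chr9:59549208-59549358, the highest clustered peak: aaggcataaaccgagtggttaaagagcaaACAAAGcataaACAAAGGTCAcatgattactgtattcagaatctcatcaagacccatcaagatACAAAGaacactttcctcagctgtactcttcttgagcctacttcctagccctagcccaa
Near Ubxn8, chr8:33647079-33647229, the next highest: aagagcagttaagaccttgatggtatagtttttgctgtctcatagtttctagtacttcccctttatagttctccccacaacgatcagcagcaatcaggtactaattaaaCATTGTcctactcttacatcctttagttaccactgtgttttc
Stk24 intron, chr14:121349519-121349669, high and with both SOX words: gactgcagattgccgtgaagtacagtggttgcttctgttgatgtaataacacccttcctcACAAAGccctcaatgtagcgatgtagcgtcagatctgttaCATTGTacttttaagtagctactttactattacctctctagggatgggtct
Rcan2 intron, chr17:43833222-43833372, the named rise with the smallest p: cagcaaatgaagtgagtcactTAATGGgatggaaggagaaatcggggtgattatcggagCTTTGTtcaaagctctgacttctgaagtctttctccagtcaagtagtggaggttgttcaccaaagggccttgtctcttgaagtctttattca
Tcf7l1 intron, chr6:72723337-72723487, weak without IAA, in a cluster of 6: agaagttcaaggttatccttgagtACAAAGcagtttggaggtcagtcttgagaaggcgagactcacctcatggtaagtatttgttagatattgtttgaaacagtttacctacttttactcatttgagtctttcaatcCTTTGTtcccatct
St7 intron, chr6:17813397-17813547, the largest log2 change: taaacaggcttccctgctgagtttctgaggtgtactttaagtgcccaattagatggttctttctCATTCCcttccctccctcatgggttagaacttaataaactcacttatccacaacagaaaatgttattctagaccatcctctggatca
Fut10 intron, chr8:31241293-31241443, the next largest log2 change: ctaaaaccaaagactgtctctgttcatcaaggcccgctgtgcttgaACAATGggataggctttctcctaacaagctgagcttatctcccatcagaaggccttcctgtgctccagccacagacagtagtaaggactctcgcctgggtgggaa
Dgki intron, chr6:37166876-37167026, the only fall past the threshold: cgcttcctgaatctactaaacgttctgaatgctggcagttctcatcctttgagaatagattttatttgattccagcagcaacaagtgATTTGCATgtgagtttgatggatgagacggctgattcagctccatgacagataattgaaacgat
The Hexa peak holds CTTTGT 3 times in reverse orientation, and in its run ACAAAGGTCA a SOX word overlaps the ESRRB-type word. The Dgki peak is the only one of the 8 with an octamer.

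Few clustered unflagged peaks carried the letters that OCT4 binds. The octamer was found in 30 of 2402 windows (1.25%, 95% Wilson interval 0.876 to 1.78), against 7.84% of OCT4 co-bound windows, 2.96% of all bound windows, 1.35% of isolated unflagged windows, 0.892% of unflagged windows near a co-bound peak and 2.27% of 2295 windows of the same length placed 2 kb away from a clustered peak. The SOX-OCT core was found in 1.12% of clustered windows, against 10.5% of co-bound windows, 1.16% of isolated unflagged windows, 0.892% of unflagged windows near a co-bound peak and 1.22% of the windows 2 kb away. The rule read no sequence, but it left out peaks at OCT4 sites or near a co-bound peak. A lower share than at co-bound peaks can therefore follow from the rule itself, and these shares are a description.

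SOX, NANOG-type and ESRRB-type words were more frequent at clustered peaks than beside them. CATTGT was present in 833 windows (34.7%, interval 32.8 to 36.6) against 18.9% of the windows 2 kb away, and CTTTGT in 49.0% against 27.2%. Either SOX word was present in 67.0% of clustered windows, in 68.3% of all bound windows and in 40.7% of the windows 2 kb away. AAGGTCA, the half-site bound by orphan nuclear receptors such as ESRRB, was present in 19.9% against 6.80%, and TAATGG in 21.8% against 14.7%. GGGTGTGG was present in 6.99% against 3.22%, GGAATG in 22.2% against 17.5%, and TTCCNGGAA in 1.46% against 1.18%. CATTGT and TTGTNATGC can overlap, as can CTTTGT and AAGGTCA, so a few windows count for both words of a pair. Isolated unflagged windows had close shares, with 37.9% for CATTGT, 18.7% for AAGGTCA and 22.3% for TAATGG. Among the 8 words other than CTTTGT, 673 clustered windows (28.0%) held none, 998 held 1 and 731 held 2 or more. Of 1063 matches to CATTGT, 46.4% lay within 50 bp of the window center, while the same share was 43.8% for TAATGG and 33.5% for AAGGTCA. Intervals here cover counting error only, and a match is not a site.

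**Figure D1:**
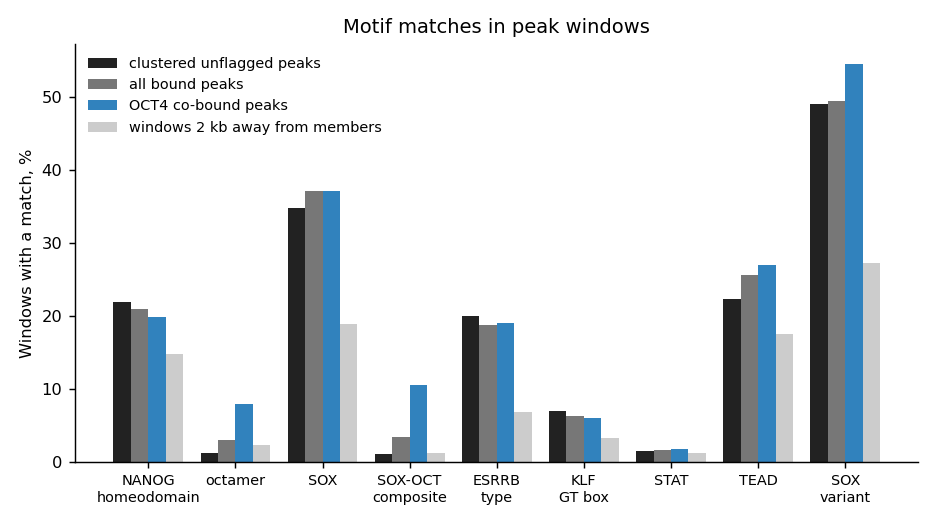
Share of 351 bp windows (%) with an exact match to each of 9 words, for clustered unflagged peaks (black), all bound peaks (dark gray), OCT4 co-bound peaks (blue) and windows 2 kb away from clustered peaks (light gray). The octamer and SOX-OCT bars are short for clustered peaks (1.25% and 1.12%) and tall for co-bound peaks (7.84% and 10.5%), while the SOX and ESRRB-type bars exceed those of the windows 2 kb away.

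Levels and changes were also compared between clustered peaks with and without a word. The median level over the 4 libraries was 3.34 RPKM for clustered peaks with CATTGT and 3.19 RPKM for those without, and 3.40 and 3.21 RPKM for AAGGTCA. The median log2 change after IAA was 0.89 with CATTGT and 0.87 without, 0.94 and 0.85 for AAGGTCA, and 0.84 and 0.88 for TAATGG. For the 30 peaks with an octamer the median change was 0.66, against 0.88 for the others.

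The 2402 peaks fell into 1225 clusters, where a cluster links bound peaks whose centers lie within 10 kb of the next. Pairs dominated, with 971 clusters of 2 bound peaks, 171 of 3, 55 of 4, 21 of 5, 5 of 6, 1 of 7 and 1 of 11. The nearest bound peak lay at a median of 4.67 kb (quartiles 2.01 and 7.24 kb), and for 318 peaks at less than 1 kb. No windows overlapped, since the smallest distance was 353 bp. For 2113 peaks the nearest bound peak was itself a clustered unflagged peak, for 237 it carried another flag, and for 52 it was an unflagged peak near a co-bound one. Because clusters grow by links, 72 of them reached a co-bound peak farther along, always more than 10 kb from the members counted here.

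Clustered unflagged peaks lay mostly in introns. By the center of the window, 1359 (56.6%) were intronic, 871 (36.3%) intergenic, 85 in exons of non-coding transcripts, 51 in UTRs and 36 in coding exons. Isolated unflagged peaks were 53.4% intronic and 40.1% intergenic, and all bound peaks 50.9% and 42.8%. The median distance to the nearest annotated transcription start was 9.29 kb, close to the 9.39 kb of all bound peaks, and 7.83% lay within 1 kb of a start. Of 993 clusters with 2 or more members, 564 (56.8%) lay wholly in the body of 1 gene and 300 (30.2%) were wholly intergenic. By chromosome, the share of bound peaks in the group ran from 4.76% on chromosome Y (1 of 21) and 6.12% on chromosome X (15 of 245) to 17.6% on chromosome 19 (95 of 540).

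In the libraries, clustered unflagged peaks had a median signal of 2.08 and 2.68 RPKM in uninduced replicates 1 and 2 and 4.06 and 4.22 RPKM in IAA replicates 1 and 2. Both IAA medians lay above both uninduced medians. On the scale of log2(RPKM + 0.1), which understates changes at low values, the library medians averaged 1.30 ± 0.25 (SD, n = 2) in uninduced cells and 2.08 ± 0.04 (n = 2) after IAA. An exact two-sided permutation test of this difference gave p = 0.333, the smallest value that 2 against 2 libraries allow. Clustered windows took up 0.214% and 0.297% of all reads in the uninduced libraries (95% Wilson intervals 0.211 to 0.217 and 0.294 to 0.300) and 0.444% and 0.469% in the IAA libraries (0.441 to 0.447 and 0.463 to 0.475). RPKM is relative to the reads of its own library and no spiked-in chromatin scaled these values, so a difference in NANOG occupancy and one in the efficiency of the immunoprecipitation cannot be told apart.

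**Figure D2:**
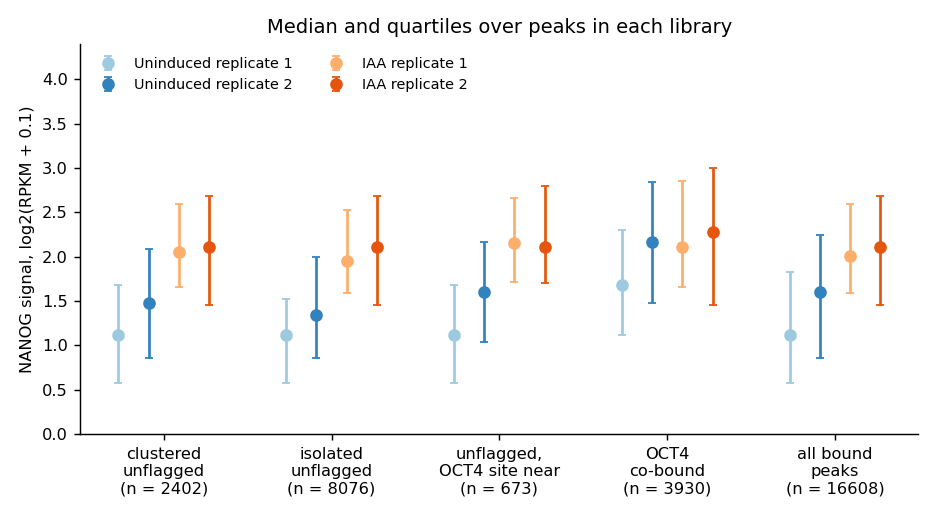
NANOG signal as log2(RPKM + 0.1) for 5 groups of peaks, with points for the median over peaks and bars for the quartiles in each of the 4 libraries. Clustered and isolated unflagged peaks show nearly the same 4 medians, with uninduced libraries (blue) below IAA libraries (orange), whereas for co-bound peaks uninduced replicate 2 reaches the IAA libraries.

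The change of signal at clustered unflagged peaks differed from that at isolated ones by less than the spread between libraries. The median change over clustered unflagged peaks, IAA minus uninduced, was 0.87 on the log2 scale (quartiles 0.47 and 1.26), and over isolated unflagged peaks it was also 0.87 (quartiles 0.45 and 1.26). These medians differed by 0.0024, and the difference of library medians had the opposite sign, at -0.014 with a pooled SD of 0.084 between libraries of a condition (exact two-sided permutation p = 1.0, n = 2 per group). Library medians move in steps of whole reads, and clustered and isolated peaks had equal medians in uninduced replicate 1 and IAA replicate 2. The SD of 0.084 therefore holds these steps as well as spread between libraries. The mean over peaks differed by 0.0077 with a pooled SD of 0.012 (exact permutation p = 0.667). Over all bound peaks the median change was 0.76, and over OCT4 co-bound peaks it was 0.39. Clustered peaks thus moved by 0.12 more than the median of all bound peaks, and the same figure under quantile normalization was also 0.12, although that scaling moved the median of all bound peaks from 0.76 to 0.04.

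At single peaks, limma (Benjamini-Hochberg over all bound peaks, adjusted p under 0.05) called 452 clustered unflagged peaks higher after IAA (18.8%) and 1 lower, beside 15.0% and 0.337% of all 16608 bound peaks. The share called higher was close at isolated unflagged peaks (18.03%) and at unflagged peaks near a co-bound peak (18.7%). It was 6.69% at OCT4 co-bound peaks, which lowers the share of all bound peaks. Of the 452, 31 had reached 0.9 RPKM only after IAA, and among the 2294 peaks bound in both conditions 421 (18.4%) were called higher, beside 14.7% of all peaks bound in both. Both IAA libraries exceeded both uninduced libraries at 1653 clustered unflagged peaks (68.8%) and lay below both at 45 (1.87%), beside 60.5% and 4.23% of all bound peaks. They exceeded both at 66.9% of isolated unflagged peaks, 67.8% of unflagged peaks near a co-bound peak and 41.8% of co-bound peaks. The mean log2 signal was higher after IAA at 2184 of 2402 peaks (90.9%), and at 1445 (60.2%) with quantile normalization. Over all bound peaks these shares were 85.8% and 52.4%, and over isolated unflagged peaks 90.9% and 59.4%. A single peak was measured coarsely, because the SD across peaks of the difference between replicates was 0.80 for the uninduced libraries and 0.60 for the IAA libraries. Leaving out 1 library leaves a lone library in its group, so the residual spread comes from the other pair alone. Counts of calls from such fits depend on which pair supplies the spread, and do not show which libraries the calls rested on. With quantile normalization, under which the groups separated upward at 680 peaks, limma called 0, with 209 higher and 102 lower at an unadjusted p under 0.05. Of all 16608 bound peaks, limma then called 0 higher and 4 lower, so the loss of calls was general. For the 680, 209 and 102 peaks no share over all bound peaks is given here.

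Calls were more frequent at stronger peaks, and the change itself moved little with level. When all bound peaks were split into 4 equal sets by mean signal, limma called 8.77% of the 559 clustered peaks in the lowest set (up to 2.45 RPKM) and 32.5% of the 547 in the highest set (from 4.89 RPKM). The same shares were 7.35% and 24.3% for all bound peaks and 8.30% and 34.0% for isolated unflagged peaks. The median change ran from 0.82 in the lowest set through 0.83 and 0.88 to 0.95 in the highest. Isolated unflagged peaks gave 0.81, 0.82, 0.84 and 0.99 in the same sets. Near the 0.9 RPKM limit, the weakest clustered peaks stood at 0.905 RPKM in the higher condition and the strongest unflagged windows left out stood at 0.890 RPKM, and only 15 of 2402 peaks were under 1 RPKM. At the distance limit, the last peak included had its neighbor at 9998 bp and the closest peak left out at 10011 bp. The 198 clustered peaks with a neighbor at 9 to 10 kb had a median change of 0.82, and the 256 isolated peaks with one at 10 to 11 kb had 0.89.

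**Figure D3:**
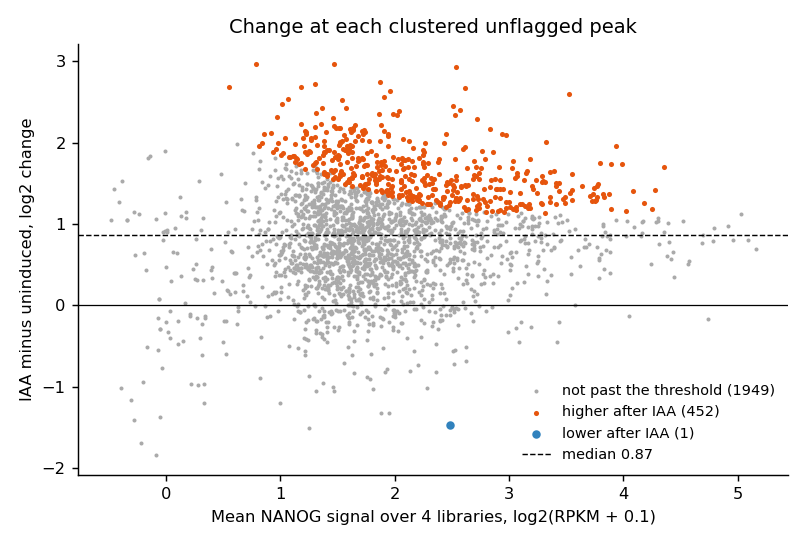
Log2 change after IAA (vertical axis) against the mean NANOG signal over the 4 libraries as log2(RPKM + 0.1) (horizontal axis), with 1 point for each of 2402 clustered unflagged peaks. Peaks that limma called higher (452, orange) lie at larger changes when the signal is low, the only one called lower is blue, and the dashed line marks the median of 0.87.

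Adjacent clustered peaks correlated in level within 5 kb and in change within 2 kb. Over 1157 pairs of adjacent clustered unflagged peaks the Pearson correlation of their mean levels was 0.22, and it was 0.50 for the 155 pairs less than 1 kb apart. Farther apart, the level correlation was 0.22 at 1 to 2 kb, 0.34 at 2 to 5 kb and 0.07 at 5 to 10 kb. The correlation of their changes was 0.21 below 1 kb, 0.27 at 1 to 2 kb (126 pairs), -0.0023 at 2 to 5 kb (320 pairs) and -0.010 at 5 to 10 kb (556 pairs). For comparison, the difference between the IAA replicates, which holds no treatment, correlated at 0.19 below 1 kb and 0.07 at 1 to 2 kb, and that between the uninduced replicates at 0.04 and -0.06. Adjacent isolated peaks 10 kb or more apart gave 0.011 for the change and 0.038 for the level over 4839 pairs. All pairs share the same 4 libraries, and whether reads of the same fragments entered both windows of a close pair was not tested. These correlations are descriptions.

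**Figure D4:**
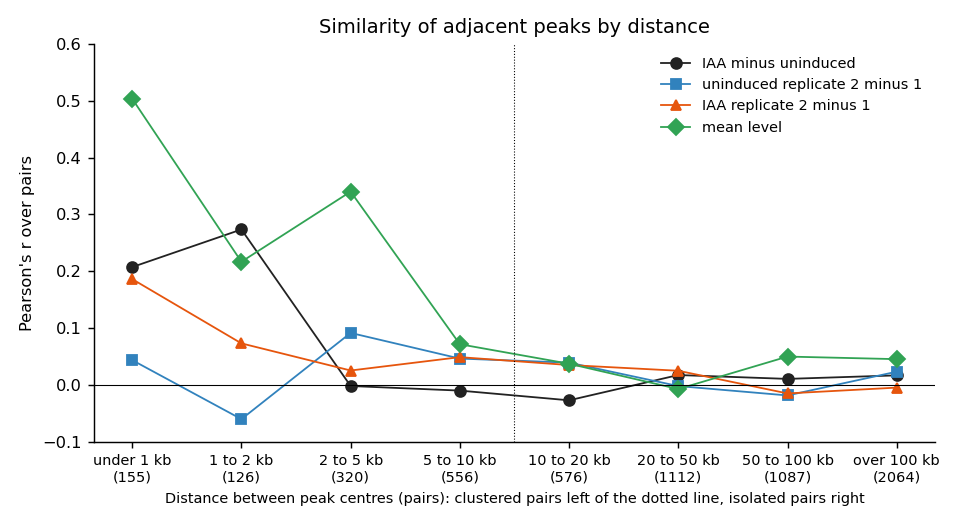
Pearson correlation between adjacent peaks (vertical axis) by the distance between their centers (horizontal axis, number of pairs in brackets), for the change after IAA, the difference between replicates of each condition, and the mean level. Clustered pairs are left of the dotted line, where the level correlates at 0.50 below 1 kb and the change at 0.21 and 0.27 below 2 kb, and isolated pairs to the right stay near 0.

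Members of a cluster mostly pointed the same way, as most peaks did. In 815 of 993 clusters with 2 or more members (82.1%) every member had a higher mean log2 signal after IAA, in 10 every member was lower and in 168 they were mixed. Single peaks were higher at 90.9% of clustered unflagged peaks, 90.9% of isolated unflagged peaks and 85.8% of all bound peaks. Adjacent pairs changed in the same direction at 85.0% for clustered and 83.9% for isolated unflagged peaks. Summed over its members, the signal of both IAA libraries exceeded that of both uninduced libraries in 817 clusters (82.3%) and lay below in 10, and the median log2 change of the sums was 0.86. For single peaks, not sums, the same shares over all bound peaks were 60.5% and 4.23%. Among 857 clusters with exactly 2 members, limma called both higher in 33, exactly 1 in 267 and none in 557. Of the members in these clusters 19.4% were called higher, beside 18.03% of isolated unflagged peaks and 15.0% of all bound peaks. Single peaks in 2-peak clusters and in larger ones did not separate, with median changes of 0.87 (1775 peaks) and 0.88 (627 peaks).

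The largest cluster lay in introns of Rftn1, which encodes the lipid-raft protein raftlin, and held 11 bound peaks over 57.9 kb (chr17:49984346-50042258). Of these, 8 were clustered unflagged peaks, 1 was co-bound by OCT4 and 2 were unflagged but near it. The 8 members summed to 15.2 and 21.5 RPKM in the uninduced libraries and 29.9 and 36.4 RPKM in the IAA libraries, a ratio of means of 1.81. Over all bound peaks, the groups separated upward at 60.5% and limma called 15.0% higher. All 8 members had a higher mean log2 signal after IAA, 5 without overlap between groups, and 1 rose by limma. That peak (chr17:50003232-50003582) had 1.04 and 2.44 RPKM in uninduced libraries and 5.08 and 4.74 RPKM after IAA, a log2 change of 1.56 ± 0.53 (SE, adjusted p = 0.033 by limma). No member exceeded 6.85 RPKM in any library, while the maximum over all clustered peaks was 52.2 RPKM.

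**Figure D5:**
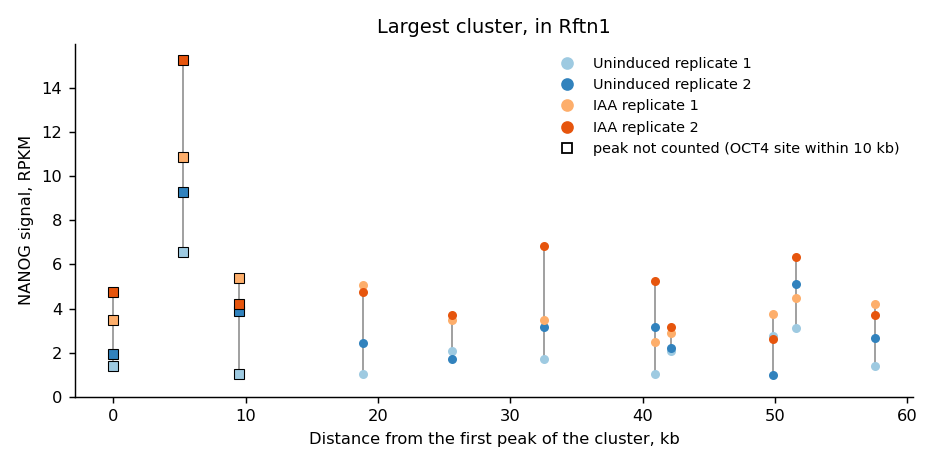
NANOG signal in RPKM (vertical axis) at the 11 bound peaks of the Rftn1 cluster by distance from the leftmost peak in kb (horizontal axis), with 1 symbol for each of the 4 libraries. Circles are the 8 clustered unflagged peaks, where the IAA libraries (orange) mostly lie above the uninduced ones (blue), and squares are the 3 peaks that are co-bound or within 10 kb of a co-bound peak.

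Adam19, which encodes a membrane-anchored metalloprotease, held the next largest cluster, with 7 bound peaks over 32.1 kb (chr11:46095560-46127695) and 4 members. Their sum was 24.9 and 27.3 RPKM in uninduced libraries and 49.5 and 46.9 RPKM after IAA, and 2 of the 4 carried most of it. The strongest (chr11:46125465-46125815) had 13.8 and 16.1 RPKM before and 29.5 and 32.1 RPKM after, with a log2 change of 1.04 that did not pass (limma adjusted p = 0.093). Its neighbor at chr11:46127345-46127695 had 6.23 and 5.86 RPKM before and 13.8 and 12.1 RPKM after (adjusted p = 0.059). The groups did not overlap at either peak. The other 2 members overlapped between groups, with log2 changes of -0.30 and -0.34.

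Tcf7l1 encodes an HMG-box repressor that acts at targets of Wnt signaling in ESCs, and its introns held a cluster of 6 bound peaks over 32.2 kb (chr6:72723237-72755462) with 5 members. The members summed to 13.1 and 20.01 RPKM in uninduced libraries and 22.5 and 26.3 RPKM after IAA. The member at the edge of the cluster (chr6:72723237-72723587, shown above) entered the group only through the IAA libraries, with 0.346 and 0.732 RPKM in uninduced libraries, worth 1 and 3 reads, and 2.61 and 5.80 RPKM after IAA, a log2 change of 2.71 ± 0.69 (SE). The ratio of pooled reads per library size was 5.76, with a counting interval of 2.02 to 22.6. The opposite edge (chr6:72755112-72755462) had 3.46 and 4.88 RPKM before and 2.32 and 4.74 RPKM after, and these overlapped. The log2 change at that edge was -0.30.

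Of the 5 clusters of 6 bound peaks, 4 are described. That in Fbxw11, an F-box substrate adaptor of a ubiquitin ligase, spanned chr11:32640720-32679409 with 4 members summing to 10.4 and 12.2 RPKM in uninduced and 18.9 and 16.9 RPKM in IAA libraries. Its member at chr11:32650912-32651262 rose, with 2.77 and 0.244 RPKM before (8 and 1 reads) and 5.80 and 6.32 RPKM after, a log2 change of 2.63 ± 0.57 (limma adjusted p = 0.0011). Without the variance trend its adjusted p was 0.055. The cluster at chr18:82146698-82170621 was wholly intergenic, with Galr1 as the nearest coding gene at 252 kb from its called peak. Its 6 members summed to 12.8 and 15.4 RPKM before and 19.3 and 22.7 RPKM after, and the groups of sums did not overlap. Its member at chr18:82154580-82154930 rose by a log2 of 1.70 ± 0.52 (adjusted p = 0.019). That at chr18:82170271-82170621 lay lower in both IAA libraries, with 3.46 and 3.17 RPKM before and 1.74 and 1.58 RPKM after (adjusted p = 0.22). The window of this lower member was 94.6% soft-masked (repeat) and shares a run of 50 bases with another window. So do the chromosome 18 members at chr18:82161628-82161978 (88.9% soft-masked) and chr18:82162370-82162720 (90.6%). In Fbxw11, the members at chr11:32669250-32669600 (42.7%) and chr11:32679059-32679409 (89.2%) share such runs too. The remaining described cluster lay at the Duxf3 locus (chr10:58224508-58239704), a repeated array of Dux family genes, where 3 of 5 members share runs of 50 bases with other windows. Those 5 members summed to 11.1 and 13.7 RPKM before and 15.4 and 16.3 RPKM after, and every one of them overlapped between groups. Under quantile normalization, which moved the median change of all bound peaks from 0.76 to 0.04, the log2 change of the sums was 0.14 at Rftn1 and 0.19 at Adam19 but -0.12 at Tcf7l1, -0.0048 at Fbxw11, -0.16 on chromosome 18 and -0.40 at Duxf3.

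The strongest clustered unflagged peaks were high in every library, and none of the 6 passed limma. The highest lay in an intron of Hexa (chr9:59549108-59549458), which encodes a subunit of lysosomal hexosaminidase, with 21.1 and 34.2 RPKM in uninduced libraries and 38.0 and 49.5 RPKM after IAA. Its log2 change was 0.69 ± 0.50 (SE, adjusted p = 0.31 by limma), and its sequence carries the 3 SOX words and the ESRRB-type word shown above. The peak 5.19 kb from the start of Ubxn8 (chr8:33646979-33647329) had 19.0 and 31.2 RPKM before and 36.4 and 49.5 RPKM after.
The intergenic peak 16.4 kb from Apela, which encodes a secreted ligand of the apelin receptor, had 15.2 and 26.4 RPKM before and 36.9 and 52.2 RPKM after (chr8:65053583-65053933). It showed the largest change of the 6, a log2 of 1.13 ± 0.48, with an adjusted p of 0.086 from limma and of 0.029 from voom on recovered reads. The intronic peaks in the kinase gene Stk24 (chr14:121349419-121349769), the exchange factor gene Dock9 (chr14:121719974-121720324) and the potassium channel gene Kcnj6 (chr16:94759577-94759927) had log2 changes of 0.80, 0.97 and 0.95, with adjusted p values between 0.13 and 0.23. At all 6 peaks the groups did not overlap, with uninduced replicate 1 the lowest library. Among peaks with a mean signal from 4.89 RPKM, both IAA libraries exceeded both uninduced ones at 80.4% of clustered unflagged peaks. At that level the share was 83.2% for isolated unflagged peaks and 71.0% for all bound peaks.

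The 5 largest log2 changes among called peaks were at peaks weak in uninduced cells. Those in St7, Fut10 and Tcf7l1 had reached 0.9 RPKM only after IAA, so they could only be higher there and their values are a description. The St7 intron (chr6:17813297-17813647) had 0.346 and 0.732 RPKM before, worth 1 and 3 reads, and 3.77 and 5.80 RPKM after. Its log2 change was 2.97 ± 0.67 (SE), and the ratio of pooled reads per library size was 7.35 with a counting interval of 2.64 to 28.4. The intron of Fut10, a fucosyltransferase family gene, stood at the value of 1 read in each uninduced library, which may have been 0, and at 19 and 6 reads after IAA (chr8:31241193-31241543). Taken as 1 read each, the ratio was 9.94 with a counting interval of 2.48 to 86.6, and the log2 change was 2.96 ± 0.81.
The intron of Rcan2, which encodes a regulator of calcineurin, gave the smallest p of these (chr17:43833122-43833472). Its signal was 1.04 and 1.46 RPKM before and 8.71 and 11.6 RPKM after, a log2 change of 2.93 ± 0.49 (adjusted p = 1.24e-05). The intergenic peak 28.4 kb from 1700041M05Rik (chr4:125199992-125200342) rose from 0.346 and 1.71 RPKM to 4.79 and 7.38 RPKM, and the remaining peak of the 5 is that of Tcf7l1 described above. None of the 5 windows shares a run of 50 bases with another window. The Fut10 window was nonetheless 83.5% soft-masked (repeat) and the Tcf7l1 window 31.1%, beside a median of 11.4% over clustered unflagged peaks.

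Only 1 clustered unflagged peak fell past the threshold, in an intron of Dgki, which encodes a diacylglycerol kinase (chr6:37166776-37167126). It had 4.50 and 12.2 RPKM in uninduced libraries and 2.18 and 3.16 RPKM after IAA, a log2 change of -1.46 ± 0.46 (SE, adjusted p = 0.021 by limma). Both IAA libraries lay below both uninduced libraries, although the uninduced libraries differed from each other by more than the smaller of the gaps. Its window holds the octamer ATGCAAAT in reverse orientation, printed in capitals above, and carries no flag for OCT4. The nearest bound peak, 4.89 kb away, is also a clustered unflagged peak. Without uninduced replicate 2 the log2 change was -0.75 (adjusted p = 0.21), and without the variance trend the adjusted p was 0.10.

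Genes of the pluripotency network, of signaling and self-renewal and of lineage regulation were checked for clustered unflagged peaks within 100 kb. Of 22 pluripotency network genes, 7 had such peaks, 15 in number, of which 2 were called higher, including 1 bound only after IAA, and 0 lower. Of 25 signaling and self-renewal genes, 9 had 22 peaks, with 3 called higher, including 1 bound only after IAA, and 0 lower. Of 20 lineage regulators, 3 had 6 peaks, with 2 called higher and 0 lower. These counts stand beside 15.0% of all bound peaks and 18.8% of all clustered unflagged peaks called higher. At an unadjusted limma p under 0.05 the 3 lists held 6, 5 and 2 peaks higher and 0 lower. The median log2 changes were 0.79, 0.62 and 0.90, beside 0.87 over all clustered unflagged peaks.

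Near pluripotency genes, the strongest of these peaks lay 10.4 kb from Tbx3, a T-box transcription factor of the naive network (chr5:119694902-119695252), with 7.96 and 10.98 RPKM in uninduced and 19.7 and 17.4 RPKM in IAA libraries. The groups did not overlap, and limma gave a log2 change of 0.98 ± 0.43 (adjusted p = 0.092). In an intron of Tet1, which encodes a dioxygenase of 5-methylcytosine (chr10:62843930-62844280), the signal was 6.92 and 8.79 RPKM before and 13.6 and 11.6 RPKM after (adjusted p = 0.23). In an intron of Esrrb, the orphan nuclear receptor of the network (chr12:86450767-86451117), it was 6.57 and 8.05 RPKM before and 11.03 and 9.49 RPKM after (adjusted p = 0.40).
The peak 39.3 kb from Sox2, the HMG-box partner of OCT4 (chr3:34691634-34691984), rose from 2.77 and 4.64 RPKM to 9.43 and 12.1 RPKM, a log2 change of 1.55 ± 0.43 (adjusted p = 0.010). Its clustered neighbor 5.87 kb away had 3.11 and 2.93 RPKM before and 4.50 and 3.16 RPKM after (adjusted p = 0.66). The other call was 97.5 kb from Prdm14 (chr1:13015816-13016166), at a peak that reached 0.9 RPKM only after IAA, with 0.692 and 0.976 RPKM before and 3.77 and 2.64 RPKM after. Both clustered peaks within 100 kb of Nanog itself, 65.0 and 67.9 kb from the gene, failed the test, at adjusted p = 0.13 and 0.17.

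Among signaling genes the strongest peak was the one in Kcmf1, 65.4 kb from Tcf7l1 (chr6:72854430-72854780), with 14.9 and 23.4 RPKM before and 20.2 and 27.9 RPKM after. These overlapped between groups (log2 change 0.34 ± 0.45, limma adjusted p = 0.59). The peak in Il31ra, 63.9 kb from Il6st, the gene of the LIF co-receptor gp130 (chr13:112573841-112574191), also overlapped, with 6.57 and 8.30 RPKM before and 7.83 and 9.49 RPKM after. The 3 calls were the Tcf7l1 intron, a peak 27.2 kb from Axin2 and a peak 13.1 kb from Fgf4.
At Axin2, a feedback inhibitor of Wnt signaling (chr11:108893009-108893359), the signal rose from 3.11 and 4.39 RPKM to 8.13 and 8.96 RPKM. The log2 change was 1.18 ± 0.44 with an adjusted p of 0.048, which was 0.051 with a pseudocount of 0.01. At Fgf4, a growth factor of ESCs (chr7:144878214-144878564), it rose from 1.04 and 1.46 RPKM to 4.06 and 4.22 RPKM (adjusted p = 0.035).

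Among lineage regulators, both calls were at Eomes, a T-box factor of trophectoderm and mesendoderm, and its peaks are named after their values were seen. The stronger lay in a UTR (chr9:118482122-118482472) and rose from 2.42 and 2.44 RPKM to 10.6 and 8.43 RPKM, a log2 change of 1.92 ± 0.45 (limma adjusted p = 0.0029). The other, in an intron (chr9:118480857-118481207), rose from 1.73 and 1.95 RPKM to 5.51 and 5.80 RPKM (adjusted p = 0.024). The peak in the non-coding gene Otx2os1, 35.8 kb from Otx2, a homeobox gene of the primed epiblast (chr14:48709407-48709757), had 3.805 and 5.61 RPKM before and 7.69 and 6.85 RPKM after, which did not pass (adjusted p = 0.28). Under quantile normalization the log2 changes at the Tet1, Esrrb, Kcmf1, Il31ra and Otx2os1 peaks were below 0.

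Clustered unflagged peaks were found in the bodies of 814 genes, 571 of which held 2 or more and 20 held 5 or more. Fgfr2 headed the list with 13, of which 2 were called higher, but the annotation gives this gene a span of 2961 kb, so most of these peaks need not lie near its promoter or exons. Slc39a11, which encodes a zinc transporter, held 7 with 4 called higher and a median log2 change of 1.34. Sestd1 held 6 with a median change of 0.45, while Stk24 held 6, all with both IAA libraries above both uninduced ones, beside 60.5% of all bound peaks and 68.8% of all clustered ones. The calls in these genes stand beside the 15.0% of all bound peaks called higher. The spread within a gene was wide, as in Tcf7l1, where 7 peaks ran from -0.30 to 2.71.

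A minority of the group lay in repeated sequence and had lower values. Windows sharing a run of 50 bases with another window numbered 259 (10.8%), against 15.9% of all bound peaks, and their median soft-masked (repeat) share was 73.8%, against 8.83% for the other 2143. The repeated windows were weaker, with a median of 2.22 RPKM against 3.33 RPKM, and their median log2 change was 0.62 against 0.90. Limma called 15 of them higher (5.79%) against 437 of the others (20.4%). Without them the clustered unflagged peaks differed from isolated unflagged peaks treated the same way by 0.014 in median change. How reads that fit several places were assigned bears on these windows, and its part was not tested.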

How the data were processed

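NANOG ChIP-seq signal in 4 libraries of ZHBT-O4AID ESCs was grouped by the labels into Uninduced (2) and IAA (2). Per the study's methods and the submitters' processing notes, the authors used Bowtie2 2.3.4.3 and the GRCm38/mm10 build, removed duplicates, called peaks with MACS2 on all reads together and counted reads in windows centered on summits. The deposited values are RPKM computed by the authors over those windows, 1 table per library, plus a table of condition means with 4 flags, which equal the means of the 2 library values within 5.0e-06. OCT4 sites and chromatin classes behind the flags came from published data on other ESC lines, so neither was measured in these cells.

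Window starts were read as counted from 0, so printed positions run from start + 1. All values were whole multiples of the smallest (tolerance 0.001), which was taken as 1 read. Signal was used as log2(RPKM + 0.1). The deposited RPKM are no counts, so limma 3.58.1 in R 4.3.3 was fitted to all 16608 bound peaks (two-sided, with eBayes using a trend of variance with signal) and p-values were adjusted by Benjamini-Hochberg, called under 0.05. The SE is that of limma's log2 change. Library medians were compared by exact permutation. Counting intervals of read ratios are exact binomial at 95%. Windows were matched to GENCODE mouse release M21 and the RefSeq sequence of GRCm38 with Python 3.11.15, numpy 2.4.6, pandas 2.3.3 and scipy 1.17.1. Figures were drawn with matplotlib 3.10.9. Scripts were tested on simulated data. The labels give no batch.

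The members, gene lists, words and rules were chosen with earlier results of these data known. Named were the 6 clusters with most bound peaks (ties by the summed signal of their members), the 6 highest peaks, the 5 largest rises and falls past the threshold without overlap of the groups, and, for the listed genes, the highest peak within 100 kb (8 in full). Called peaks near listed genes were added after their values were seen. The number of columns belonging to no sample of the series was 0. Alternatives were pseudocounts of 0.01 and 0.5, thresholds of 2 RPKM, on the mean or none, distances of 5 and 20 kb, quantile normalization, no variance trend, a replicate block, voom on recovered reads, an adjusted p of 0.01, the central part of windows for words, and leaving out each library. Leaving out windows that share 50 bases and using means over peaks were chosen after seeing the data. Same-numbered libraries did not deviate together (r = 0.0049 over clustered unflagged peaks), so the numbers were not taken as pairs.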

Additional observations from a re-analysis of the deposited data

How the results depend on the processing

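The median log2 change of clustered unflagged peaks kept its sign under every alternative, from 0.15 with quantile normalization to 1.05 without uninduced replicate 2. Its difference from isolated unflagged peaks, 0.0024, was -0.0040 at a threshold of 2 RPKM, -0.0018 with no filter, -0.011 at 5 kb and between -0.0091 and 0.0071 when 1 library was left out, all with exact permutation p of 0.667 or more.

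The count of 452 peaks called higher by limma became 247 at 5 kb, 24 without the variance trend (850 at an unadjusted p under 0.05), 94 at an adjusted p of 0.01, 0 with quantile normalization and 0 to 1127 when 1 library was left out, where a lone library is assumed to vary like the other group. The 1 peak called lower became 3 at 2 RPKM, 3 at 20 kb, 3 with voom, 0 with quantile normalization, 0 without the trend (11 at an unadjusted p under 0.05), 0 at an adjusted p of 0.01 (6) and 0 to 4 when 1 library was left out. The cause was not tested. With the replicate number as a block, 455 were called higher and 1 lower, and the numbers pair no samples by the labels. Distances of 5 kb gave 1334 peaks in 692 clusters. Peaks with both IAA libraries above both uninduced libraries numbered 891 of the 1334 at 5 kb, beside 1653 of 2402 (68.8%) at 10 kb. They numbered 2480 at 20 kb, where the group was larger, and 680 of 2402 with quantile normalization. Over all bound peaks the share was 60.5% without that normalization. Distance sets which peaks are in the group and leaves their signal unchanged.

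In the central part of the windows the shares were 13.3% for TAATGG, 0.50% for the octamer, 23.0% for CATTGT, 0.75% for the SOX-OCT core, 10.1% for AAGGTCA, 3.08% for GGGTGTGG, 0.54% for TTCCNGGAA and 10.4% for GGAATG, since fewer bases were searched. Quantile normalization turned the log2 changes of the Kcmf1 (-0.36), Tet1 (-0.018), Esrrb (-0.21), Il31ra (-0.49) and Otx2os1 (-0.0068) peaks and of the summed clusters at Tcf7l1 (-0.12), chromosome 18 (-0.16), Fbxw11 (-0.0048) and Duxf3 (-0.40). All 15 named peaks past the threshold lost the call with quantile normalization, and 10 of them without the variance trend. With the block, 7 named peaks that had not passed did so (the 6 highest and the Tbx3 peak, limma adjusted p from 0.00035 to 0.023), and the Prdm14 peak did not (0.055). Depth limited single peaks, with a median of 6 to 28 reads per window.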
